A study of Mus musculus with 6 samples.

Results

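The expression of 9 neutrophil genes was followed in mouse kidneys at 24 h after ischemia-reperfusion injury (IRI). The genes were *S100a8*, *S100a9*, *Csf3r*, *Cxcr2*, *Mmp8*, *Retnlg*, *Il1r2*, *Trem1* and *Clec4d*, chosen by name from the 21367 genes of the deposited table, and all 9 were found. Libraries of polyadenylated RNA came from the left kidneys of 3 *Ptpn6*+/mev mice and 3 wild-type littermates, and the study asked how less of the phosphatase SHP-1, the product of *Ptpn6*, changes gene expression after IRI. The *Ptpn6*+/mev mice were heterozygous for the viable motheaten allele, which alters a splice consensus site in every cell of the animal, and the labels call this genotype an SHP1 knockdown. Both groups were C57BL/6 mice of 7 weeks, both had lost the right kidney, and in both the left pedicle was clamped for 34 min. Kidneys without IRI were not analysed here, so the values compare genotypes after injury and do not give the effect of injury. Each group held 3 mice, and errors are SDs over those 3 libraries.

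Neutrophils are short-lived granulocytes made in the bone marrow under the control of granulocyte colony-stimulating factor (G-CSF), which acts through the receptor encoded by *Csf3r*. They leave the blood for injured tissue along gradients of CXC chemokines, which they sense through CXCR2, and they carry the S100A8/S100A9 heterodimer as an abundant cytosolic protein. SHP-1 is strongly expressed in blood cells and restrains tyrosine kinase signalling downstream of many of their receptors. Several of the 9 genes are also used by monocytes and macrophages, *Clec4d*, *Trem1*, *Il1r2*, *S100a8* and *S100a9* among them. Here the kidney was sequenced whole, so fewer cells of a type and less RNA per cell cannot be told apart.

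None of the neutrophil genes passed the threshold. Of the 9 genes, 8 had enough counts to be tested. By the quasi-likelihood test of edgeR, 0 of 8 had a false discovery rate (FDR) below 0.05, against 0.138% of all 13036 genes tested. At an unadjusted p under 0.05 the test held 1 of 8, *Clec4d*, which was higher in *Ptpn6*+/mev, where 5.53% of all genes were higher at that p. In either direction 1596 of the 13036 genes were under that p, 721 of them higher. The counts at that p in the lists below stand beside these. DESeq2's Wald test called 0 of 8 against 2.97% of all genes, and edgeR's exact test called 0 of 8 against 2.99%. Log2 fold changes are given as *Ptpn6*+/mev over wild-type throughout. They were positive for 6 and negative for 2 of the 8 genes, with a median of 0.21, beside a median of -0.0024 over all genes tested. With 1 library left out that median was 0.020 (*Ptpn6*+/mev replicate 2), 0.036 (wild-type replicate 2), 0.39 (*Ptpn6*+/mev replicate 1) or 0.46 (wild-type replicate 1), and it was 0.22 and 0.31 without replicate 3 of either group. In FPKM, fragments scaled to transcript length and library size, the groups overlapped for all of the 9 genes except *Clec4d*. Among all genes tested, 14.0% had separate groups with *Ptpn6*+/mev higher, and the share with *Ptpn6*+/mev lower was not counted.

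**Figure D1:**
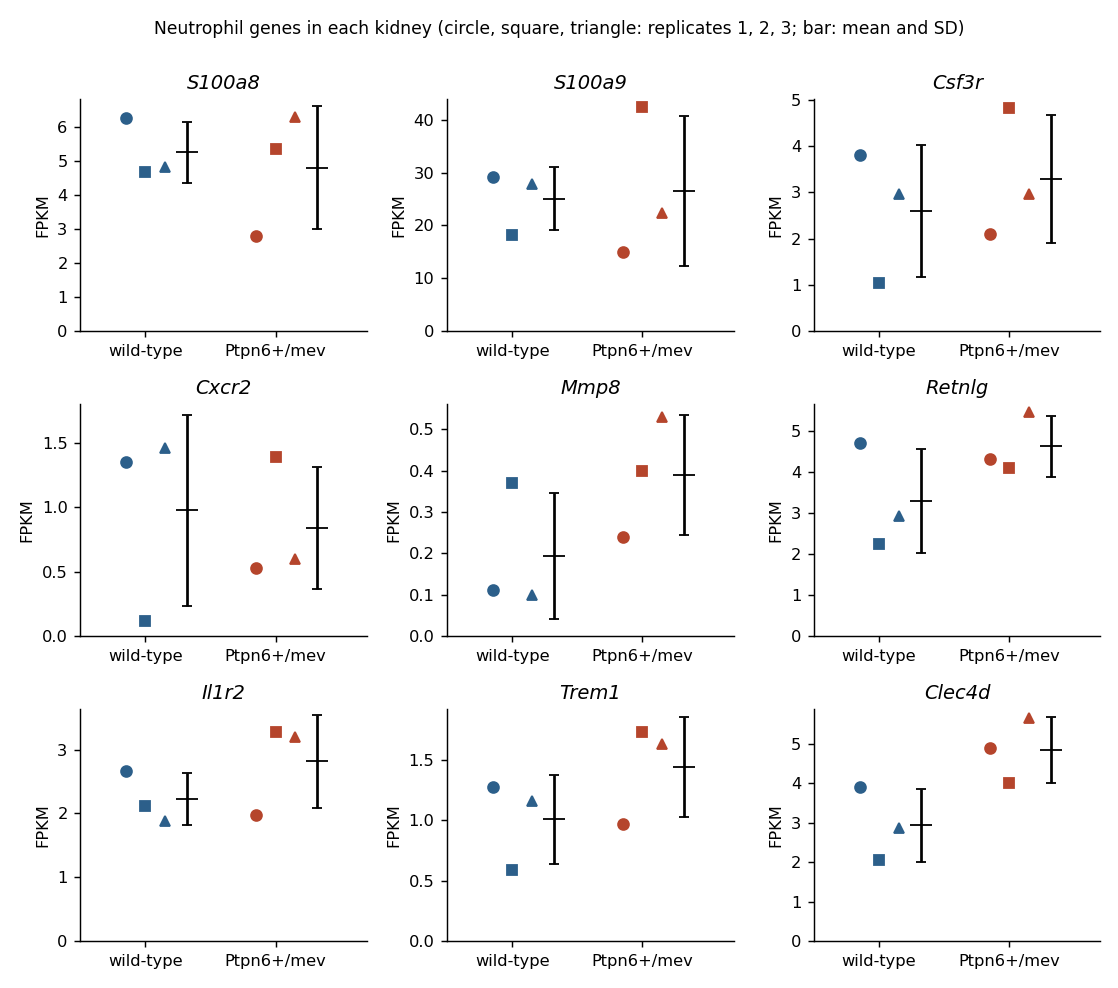
FPKM of the 9 neutrophil genes in each of the 6 kidneys, with wild-type in blue and *Ptpn6*+/mev in red. Marker shapes give the replicate number and the black bars the mean and SD of 3 libraries. Only *Clec4d* has no overlap between the groups, with *Ptpn6*+/mev from 4.00 to 5.67 FPKM and wild-type from 2.06 to 3.91 FPKM.

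The libraries held between 10271590 and 12361745 estimated counts. *Ptpn6* mRNA measured 11.85, 14.66 and 13.61 FPKM in *Ptpn6*+/mev replicates 1, 2 and 3 and 17.47, 10.87 and 15.44 FPKM in wild-type replicates 1, 2 and 3. The groups overlapped, with a log2 fold change of -0.19 (SE 0.17, FDR 0.715 in edgeR's quasi-likelihood test), and since the allele changes splicing, the gene's total need not mark the genotype. That log2 fold change was -0.33 (unadjusted p 0.025, FDR 0.212 in edgeR's test) without wild-type replicate 2 and -0.050 without wild-type replicate 1. Wild-type replicate 2 stood apart from the other libraries, at 53.9 on the first principal component, which held 46.2% of the variance, where the other 5 libraries lay between -17.5 and -3.76. It was the lowest library for 8 of 8 macrophage genes and for 4 of 4 genes that mark all leukocytes, as it was for 5 of the 9 neutrophil genes.

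The 5′ flanks of 3 of the genes are shown first, because *S100a8* and *S100a9* encode the 2 chains of 1 heterodimer and *Clec4d* had the largest difference of the 8 tested. They are RefSeq sequences of GRCm38.p6, printed 5′ to 3′ on the strand of the gene and ending before the gene start in the GENCODE annotation. The *S100a8* stretch is chr3:90668821-90668977 on the plus strand, the *S100a9* stretch is chr3:90695722-90695971 on the minus strand and the *Clec4d* stretch is chr6:123261857-123262106 on the plus strand. Capitals mark every match, on either strand, to TTNCNNAA, a core that C/EBP factors bind, or to GAGGAAG, a core that PU.1 binds, and both factors act in the granulocyte lineage.
S100a8: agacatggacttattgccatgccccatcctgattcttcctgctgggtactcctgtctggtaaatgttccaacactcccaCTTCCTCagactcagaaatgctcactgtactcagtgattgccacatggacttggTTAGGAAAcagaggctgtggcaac
S100a9: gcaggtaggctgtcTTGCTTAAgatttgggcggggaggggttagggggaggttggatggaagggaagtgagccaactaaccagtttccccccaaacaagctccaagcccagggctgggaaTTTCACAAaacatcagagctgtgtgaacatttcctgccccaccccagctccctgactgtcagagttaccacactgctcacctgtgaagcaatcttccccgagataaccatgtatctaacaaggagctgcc
Clec4d: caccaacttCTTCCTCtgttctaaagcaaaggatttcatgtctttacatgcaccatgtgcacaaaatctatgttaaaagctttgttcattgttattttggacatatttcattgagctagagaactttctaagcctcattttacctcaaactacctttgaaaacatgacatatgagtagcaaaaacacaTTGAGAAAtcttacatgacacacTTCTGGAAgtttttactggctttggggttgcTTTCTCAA

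Over the 250 bases before the RefSeq start, TTNCNNAA occurred in 6 of the 9 neutrophil genes and in 36.9% of 27025 promoters in the same table. GAGGAAG occurred in 4 of the 9, in *S100a8*, *Csf3r*, *Mmp8* and *Clec4d*, and in 10.4% of those promoters. *Clec4d* held 3 matches to TTNCNNAA, *S100a9* and *Mmp8* held 2 each, and *S100a8*, *Retnlg* and *Trem1* held 1 each. *Cxcr2* held neither motif in this window. Nor did *Il1r2*, whose window (chr1:40085843-40086092) lies inside the GENCODE span of the gene, and the windows of *S100a8*, *Csf3r* and *Cxcr2* run in part past the GENCODE start. A match is a string of letters and was not measured as a bound site.

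*S100a8* and *S100a9* lie on chromosome 3 with 22596 bases between them, *S100a8* at chr3:90668978-90670035 on the plus strand and *S100a9* at chr3:90692632-90695721 on the minus strand (GRCm38). *S100a9* was the most abundant of the 9 genes, at 14.94, 42.36 and 22.41 FPKM in *Ptpn6*+/mev replicates 1, 2 and 3 and at 29.17, 18.24 and 27.81 FPKM in wild-type replicates 1, 2 and 3. The highest and the lowest kidney were both *Ptpn6*+/mev, replicates 2 and 1, with the 3 wild-type kidneys between them. The means were 26.6 ± 14.2 FPKM in *Ptpn6*+/mev and 25.1 ± 5.96 FPKM in wild-type (SD, n = 3). Their log2 fold change was 0.022 (SE 0.36, FDR 0.991 in edgeR's quasi-likelihood test), and its 95% interval, as a fold, ran from 0.571 to 1.80. The sign rested on single libraries, with 0.31 without *Ptpn6*+/mev replicate 1 and -0.49 without *Ptpn6*+/mev replicate 2.

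*S100a8* measured 2.79, 5.34 and 6.29 FPKM in *Ptpn6*+/mev replicates 1, 2 and 3 and 6.27, 4.67 and 4.81 FPKM in wild-type replicates 1, 2 and 3. *Ptpn6*+/mev replicate 1 was the lowest kidney for both chains, and the groups overlapped. The log2 fold change of *S100a8* was -0.19 (SE 0.35, FDR 0.891), with a fold between 0.502 and 1.53. On the FPKM scale, which is per length, *S100a9* exceeded *S100a8* in every kidney by 3.56 to 7.93 times, lowest in *Ptpn6*+/mev replicate 3 and highest in *Ptpn6*+/mev replicate 2. *S100a9* alone held 45.6% to 62.8% of the summed FPKM of the 9 genes. The heterodimer is sensed through TLR4 with its partner MD-2, the product of *Ly96*, and through RAGE, the product of *Ager*. *Tlr4* measured 1.83, 1.84 and 1.59 FPKM in *Ptpn6*+/mev and 0.82, 1.07 and 1.07 FPKM in wild-type. Its groups did not overlap, beside 14.0% of all genes tested in this direction. Its log2 fold change was 0.76 (SE 0.22, unadjusted p 0.0079), and at an FDR of 0.207 it did not pass the threshold. *Ager* stood at -0.26 (SE 0.44, FDR 0.876), and *Ly96* was too low to test, at 0 to 1.07 FPKM. Of the 2 tested genes of this list, 0 passed in either direction, with *Tlr4* alone at an unadjusted p under 0.05.

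*Csf3r*, the G-CSF receptor (chr4:126024550-126044440), measured 2.09, 4.82 and 2.96 FPKM in *Ptpn6*+/mev replicates 1, 2 and 3 and 3.81, 1.03 and 2.97 FPKM in wild-type replicates 1, 2 and 3. The groups overlapped over most of their range, and the lowest kidney was wild-type replicate 2. The log2 fold change of *Csf3r* was 0.27 (SE 0.46, FDR 0.877), with a fold between 0.582 and 2.51. It was -0.083 without wild-type replicate 2 and -0.11 without *Ptpn6*+/mev replicate 2, against 0.65 without wild-type replicate 1. G-CSF itself, *Csf3*, had 1 to 4 counts per library and was not tested. Among genes that carry or limit its signal, *Jak2* stood at -0.01 (FDR 0.995), *Stat3* at -0.24 (FDR 0.421) and *Socs3*, a feedback inhibitor of this receptor, at -0.49 (SE 0.19, FDR 0.353). *Socs3* was lower in every *Ptpn6*+/mev kidney, at 15.66, 26.05 and 26.96 FPKM, than in the wild-type kidneys, at 30.71, 27.46 and 33.78 FPKM. The share of all genes with groups separate in this direction was not counted. None of the 3 tested genes of this list passed the threshold in either direction, with 1 lower at an unadjusted p under 0.05. Over all 13036 genes tested, 1596 were under that p in either direction, 721 of them higher.

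*Cxcr2*, the chemokine receptor of neutrophils (chr1:74153989-74161246), varied most of the tested 8, with an SD of 62.1% of its mean over the 6 kidneys. It measured 0.53, 1.39 and 0.60 FPKM in *Ptpn6*+/mev replicates 1, 2 and 3 and 1.35, 0.12 and 1.46 FPKM in wild-type replicates 1, 2 and 3. Wild-type replicates 3 and 2 were the highest and the lowest of all kidneys. These values rest on 13, 40 and 19 counts in *Ptpn6*+/mev and on 35, 4 and 42 counts in wild-type. The count of 4 in wild-type replicate 2 has an exact Poisson interval of 1.09 to 10.2 counts, below the 24.4 to 48.7 counts of wild-type replicate 1, and such intervals cover counting error only. The log2 fold change of *Cxcr2* was -0.080 (SE 0.68, FDR 0.979), with a fold between 0.317 and 2.82, and it was -0.56 (FDR 0.539) without wild-type replicate 2.

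Of the CXCR2 ligands, 3 were tested and all 3 had positive log2 fold changes, with 0 of 3 past the threshold and 1 of 3 at an unadjusted p under 0.05. *Cxcl2* measured 3.17, 4.51 and 5.02 FPKM in *Ptpn6*+/mev and 2.91, 1.89 and 3.09 FPKM in wild-type. Its groups were separate, beside 14.0% of all genes tested in this direction, and the log2 fold change was 0.65 (SE 0.27, unadjusted p 0.045, FDR 0.389). *Cxcl1* was more abundant, at 16.19, 22.21 and 21.77 FPKM against 13.48, 15.34 and 22.25 FPKM, and stood at 0.17 (SE 0.21, FDR 0.823) with overlapping groups. *Ppbp*, which platelets store, stood at 0.62 (SE 0.37, FDR 0.572). *Cxcl3* was below the filter, with 8, 10 and 20 counts in *Ptpn6*+/mev and 4, 1 and 3 counts in wild-type. In the fit without a filter its log2 fold change was 2.24 (SE 0.64, unadjusted p 0.0060, FDR 0.208). *Cxcl5*, at 0.06 to 1.17 FPKM, was also below the filter. In that same fit it went the other way, at -1.24 (SE 0.95, unadjusted p 0.222, FDR 0.735). *Cxcr1*, the paralogous receptor, was listed at 0 in all 6 libraries.

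*Retnlg*, a resistin-like protein of mouse granulocytes (chr16:48872621-48874496), measured 4.31, 4.11 and 5.48 FPKM in *Ptpn6*+/mev replicates 1, 2 and 3 and 4.71, 2.24 and 2.92 FPKM in wild-type replicates 1, 2 and 3. The *Ptpn6*+/mev kidneys lay close together, and wild-type replicate 1 fell among them while the other 2 wild-type kidneys were lower. The log2 fold change of *Retnlg* was 0.43 (SE 0.33, FDR 0.672), with a fold between 0.794 and 2.30. *Mmp8*, the neutrophil collagenase of the secondary granules (chr9:7558456-7568485), was the lowest of the 9 genes, at 0.24, 0.40 and 0.53 FPKM in *Ptpn6*+/mev and 0.11, 0.37 and 0.10 FPKM in wild-type. These values rest on 3 to 14 counts and *Mmp8* was below the filter. Without a filter its log2 fold change was 0.91 (SE 0.65, unadjusted p 0.191, FDR 0.714).

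*Il1r2*, the decoy receptor for interleukin 1 (chr1:40074079-40125231), varied least of the 9. It measured 1.98, 3.27 and 3.20 FPKM in *Ptpn6*+/mev replicates 1, 2 and 3 and 2.67, 2.11 and 1.88 FPKM in wild-type replicates 1, 2 and 3. The groups overlapped through *Ptpn6*+/mev replicate 1, and the log2 fold change was 0.14 (SE 0.28, FDR 0.900), with a fold between 0.704 and 1.73. FPKM and counts order the kidneys differently here, since *Ptpn6*+/mev replicate 2 had the highest FPKM with 37 counts and replicate 3 had 49 counts. *Il1r2* overlaps the antisense gene Gm16894 and, on its own strand, the unclassified transcript Gm37347. The library kit does not mark strand, so reads of *Il1r2* and of these genes cannot be told apart where they overlap. Of the IL-1 list, 0 of 4 tested genes passed in either direction, and 0 of 4 did so at an unadjusted p under 0.05. *Il1b* was at 3.08, 8.66 and 4.23 FPKM in *Ptpn6*+/mev and 5.11, 2.21 and 10.59 FPKM in wild-type, with a log2 fold change of -0.22 (SE 0.55, FDR 0.922). The antagonist *Il1rn* was at 7.77, 21.10 and 12.57 FPKM against 10.44, 4.03 and 9.91 FPKM, with a log2 fold change of 0.78 (SE 0.45, FDR 0.558). The signalling receptor chains *Il1r1* and *Il1rap* stood at 0.04 (FDR 0.965) and -0.01 (FDR 0.994), and *Il1a* was at 0 to 0.05 FPKM.

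*Trem1*, an activating receptor that amplifies inflammatory signals in neutrophils and monocytes (chr17:48232768-48246924), measured 0.97, 1.73 and 1.63 FPKM in *Ptpn6*+/mev replicates 1, 2 and 3. In wild-type replicates 1, 2 and 3 it measured 1.28, 0.59 and 1.16 FPKM. The highest 2 kidneys were *Ptpn6*+/mev and the lowest was wild-type replicate 2, with overlap through *Ptpn6*+/mev replicate 1. The log2 fold change of *Trem1* was 0.45 (SE 0.35, FDR 0.679), with a fold between 0.780 and 2.39, and it was 0.20 without wild-type replicate 2. *Trem1* overlaps a processed pseudogene, AC241601.2, on the other strand.

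*Clec4d*, a C-type lectin receptor that recognises mycobacterial glycolipid and signals with the related lectin encoded by *Clec4e*, lies at chr6:123262111-123275265, with 6523 bases between the 2 genes. *Clec4d* measured 4.91, 4.00 and 5.67 FPKM in *Ptpn6*+/mev replicates 1, 2 and 3 and 3.91, 2.06 and 2.86 FPKM in wild-type replicates 1, 2 and 3. Every *Ptpn6*+/mev kidney was above every wild-type kidney in FPKM, the nearest being *Ptpn6*+/mev replicate 2 and wild-type replicate 1. The 1 of 9 genes whose groups were separate in this direction stood beside 14.0% of all tested genes. In counts scaled to library size the groups of *Clec4d* overlapped. The log2 fold change was 0.66 (SE 0.27, unadjusted p 0.041, FDR 0.373 in edgeR's quasi-likelihood test), with a fold between 1.02 and 2.44. With 1 library left out it lay between 0.50, without wild-type replicate 2, and 0.91, without wild-type replicate 1, and its unadjusted p was at or above 0.05 in 4 of those 6 fits.

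*Clec4e* measured 0.31, 1.60 and 1.22 FPKM in *Ptpn6*+/mev and 0.55, 0.58 and 0.76 FPKM in wild-type, with a log2 fold change of 0.73 (SE 0.50, FDR 0.635). Its groups overlapped. In FPKM it was lowest in *Ptpn6*+/mev replicate 1, with 8 counts, whereas in counts it was lowest in wild-type replicate 2, with 6. Both lectins signal through the adaptor encoded by *Fcer1g*, which stood at 0.41 (SE 0.33, FDR 0.686), and through *Card9*, at 0.39 (SE 0.51, FDR 0.833). TREM1 signals through *Tyrobp*, at 0.12 (SE 0.35, FDR 0.936), and binds the product of *Pglyrp1*, at -0.35 (SE 0.55, FDR 0.863). Of the 5 genes of this list, all tested, 0 passed in either direction, also at an unadjusted p under 0.05. DESeq2's Wald test and edgeR's exact test likewise called 0 genes of the signalling lists around the S100 proteins, *Csf3r*, *Cxcr2*, *Il1r2*, *Trem1* and *Clec4d*.

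**Figure D2:**
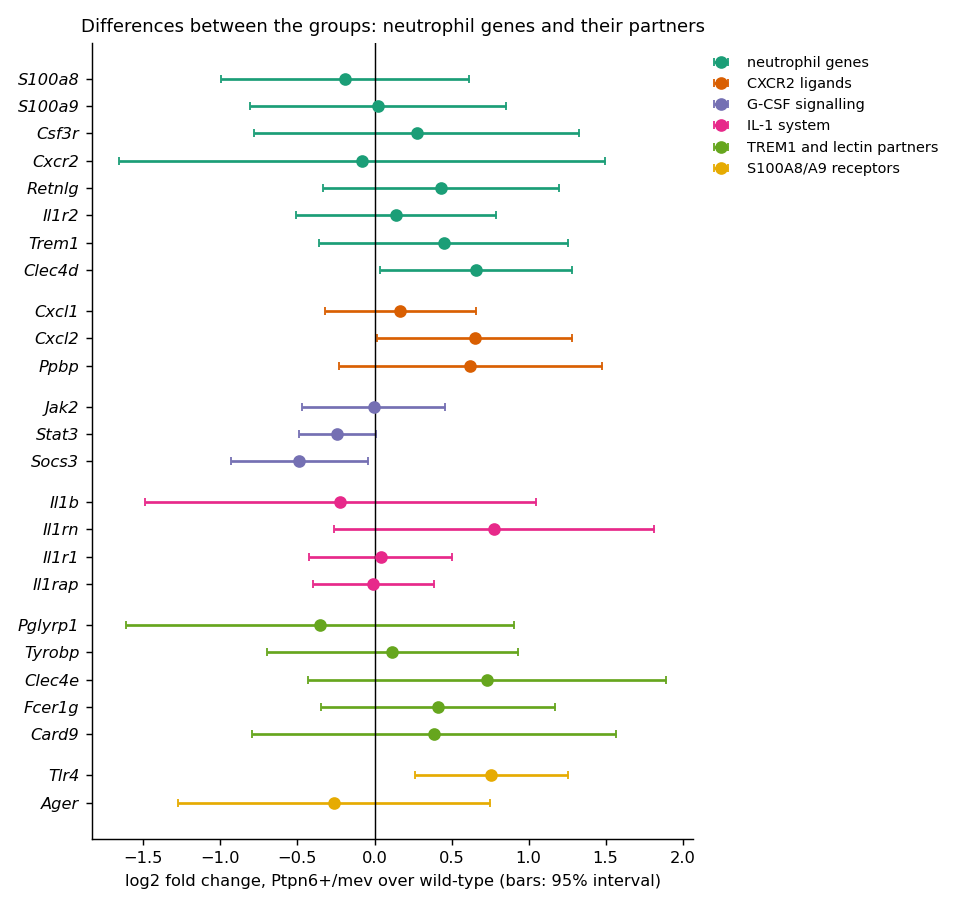
Log2 fold change of *Ptpn6*+/mev over wild-type for the tested neutrophil genes and for the tested genes of the signalling lists around them, as points with 95% intervals from edgeR's quasi-likelihood fit of 3 against 3 libraries. Among the neutrophil genes the interval of *Clec4d* alone lies on one side of 0, from 0.04 to 1.28. Outside them those of *Cxcl2*, *Socs3* and *Tlr4* do so, and none of these genes passed an FDR of 0.05.

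The upper ends of the fold intervals of the 8 tested genes ran from 1.53 for *S100a8* to 2.82 for *Cxcr2*, and the lower ends from 0.317 for *Cxcr2* to 1.02 for *Clec4d*. A doubling of *S100a8*, *S100a9* or *Il1r2* lies outside these intervals, and a doubling of *Csf3r*, *Cxcr2*, *Retnlg*, *Trem1* or *Clec4d* lies inside them. The biological coefficient of variation estimated by edgeR ran from 0.212 for *Il1r2* to 0.566 for *Cxcr2*. Counts were low for most of the 9, with totals over the 6 libraries of 46 for *Mmp8*, 153 for *Cxcr2*, 157 for *Retnlg* and 161 for *S100a8*, and the largest total was 871 for *S100a9*.

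By library, the 9 genes together summed to 32.8, 67.4 and 48.8 FPKM in *Ptpn6*+/mev replicates 1, 2 and 3 and to 53.3, 31.4 and 46.0 FPKM in wild-type replicates 1, 2 and 3. The sum was 49.7 ± 17.3 FPKM in *Ptpn6*+/mev and 43.6 ± 11.1 FPKM in wild-type (SD, n = 3), a difference smaller than either SD. The lowest sums were those of wild-type replicate 2 and *Ptpn6*+/mev replicate 1. *Ptpn6*+/mev replicate 1 was the lowest kidney for *S100a8* and *S100a9*, and wild-type replicate 2 was the lowest for *Csf3r*, *Cxcr2*, *Retnlg*, *Trem1* and *Clec4d*. *Ptpn6*+/mev replicates 2 and 3 were each the highest kidney for 4 of the 9 genes, and wild-type replicate 3 was the highest for *Cxcr2*.

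Markers of other cells moved with these libraries. The 4 genes of all leukocytes summed to 24.6 FPKM in wild-type replicate 2 and to 48.6 to 68.2 FPKM in the other 5 kidneys, and the 8 macrophage genes summed to 113.1 FPKM there and to 174.9 to 278.0 FPKM elsewhere. Of the leukocyte list *Lcp1* and *Coro1a* stood at 0.09 (FDR 0.935) and 0.34 (FDR 0.761), and of the macrophage list *Lyz2* and *C1qb* at 0.42 (FDR 0.717) and 0.18 (FDR 0.790), with 0 of 4 and 0 of 8 genes past the threshold or at an unadjusted p under 0.05. Without wild-type replicate 2 the median log2 fold change went from 0.12 to -0.13 for the leukocyte list and from 0.15 to -0.10 for the macrophage list, of which 1 of 4 and 3 of 8 genes were then positive. In *Ptpn6*+/mev replicate 1 the 5 red cell genes were at their highest, all 5 of them, with a sum of 1633 FPKM. The lowest red cell sum, 502.3 FPKM, was that of wild-type replicate 2, where the sum of the 9 neutrophil genes was also lowest, and wild-type replicate 1, with the second highest sum of those 9, had 1298 FPKM. The other 3 kidneys were at 589.4 to 644.8 FPKM. *Hbb-bs* and *Hba-a2* led that list, at 0.09 (FDR 0.968) and 0.23 (FDR 0.897) on the log2 scale, with 0 of 5 called by edgeR or DESeq2. Without *Ptpn6*+/mev replicate 1 all 5 were negative, with a median of -0.43 against 0.19 with all 6 libraries. The part of blood content or of leukocyte content in the levels of the neutrophil genes was not tested. Without wild-type replicate 2, 0 of the 8 neutrophil genes were called, against 1.77% of all genes, and 4 of the 8 log2 fold changes were positive.

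**Figure D3:**
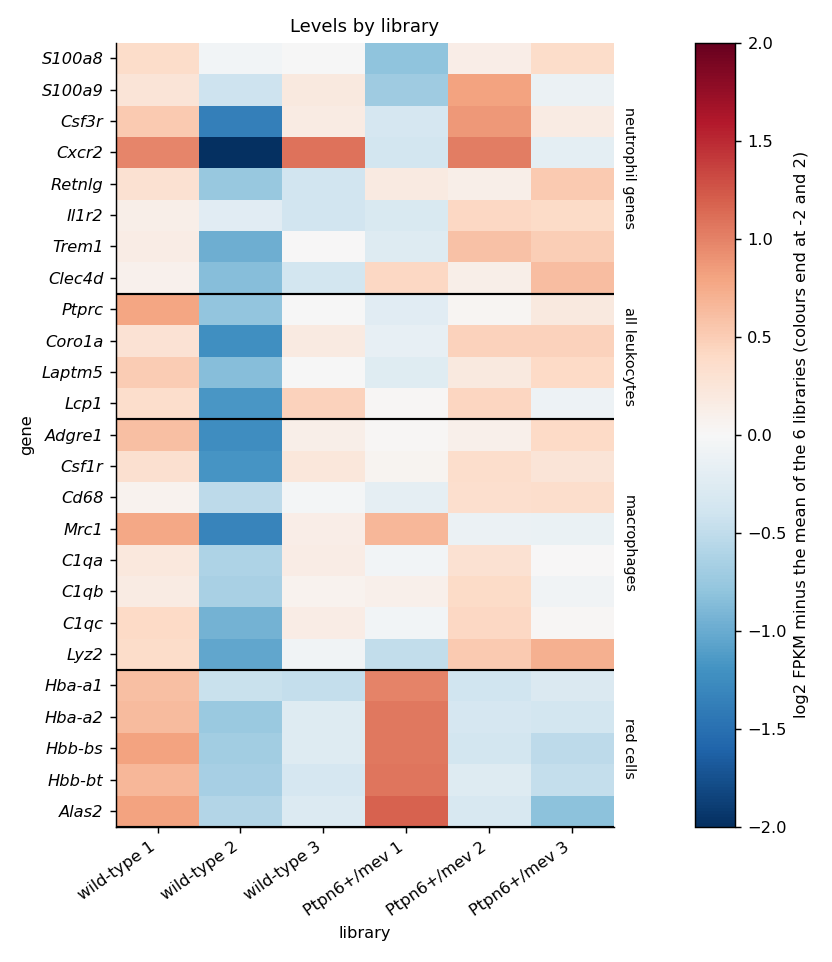
Level of each gene in each library as log2 FPKM minus the gene's mean over the 6 libraries, for the 8 tested neutrophil genes and for markers of all leukocytes, macrophages and red cells. Blue is below and red above the mean. Wild-type replicate 2 is blue for every leukocyte and macrophage gene and for the 8 neutrophil genes, and *Ptpn6*+/mev replicate 1 is red for the red cell genes.

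Some of the neutrophil genes followed each other closely across the 6 kidneys. Correlations are of log2 CPM (counts scaled to library size), given as descriptions over 6 libraries that share the group structure, the library sizes and the low wild-type replicate 2. *Csf3r* and *Cxcr2*, both receptors of mature neutrophils, had Pearson's r = 0.96 and Spearman's rho = 0.94, and r = 0.84 without the 2 kidneys farthest from the median of *Csf3r*. *Retnlg* and *Clec4d* had r = 0.95 and rho = 0.94, and r = 0.62 without the 2 farthest kidneys. *S100a8* and *S100a9* had r = 0.63 and rho = 0.60, and r = -0.21 without the 2 farthest, so that their relation rested on those kidneys. The lowest r of the 28 pairs was -0.10, between *S100a9* and *Clec4d*, which were highest in different *Ptpn6*+/mev kidneys.

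**Figure D4:**
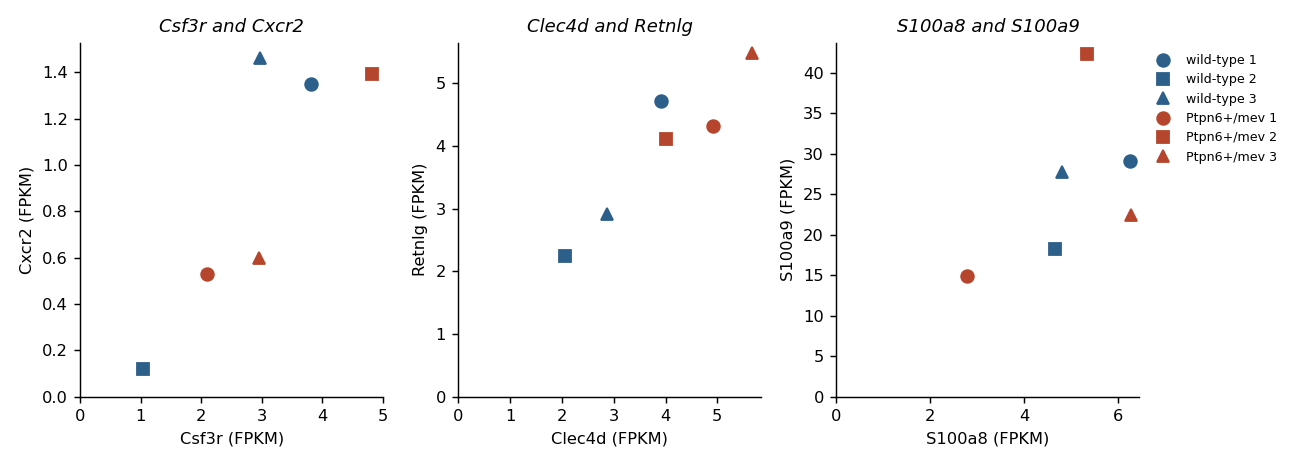
FPKM of 3 pairs of neutrophil genes in the 6 kidneys, with wild-type in blue, *Ptpn6*+/mev in red and marker shapes for replicates. *Csf3r* and *Cxcr2* are both lowest in wild-type replicate 2, at 1.03 and 0.12 FPKM, and *Retnlg* and *Clec4d* are both highest in *Ptpn6*+/mev replicate 3, at 5.48 and 5.67 FPKM. *S100a9* is at 42.36 FPKM in *Ptpn6*+/mev replicate 2, where *S100a8* is at 5.34 FPKM.

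The pattern of the 8 tested genes over the kidneys was summarised as the mean of their z-scored log2 CPM, which was lowest in wild-type replicate 2, at -1.10, and highest in *Ptpn6*+/mev replicate 2, at 0.66. Among the tested genes outside the 9, those with the highest r to this mean included *Rpl22* (r = 0.996), *Cdca4*, *Hspa14*, *BC055324* and *Dok2* (r = 0.990). With 6 libraries and 13036 genes, such values describe these libraries only. *Dok2*, an adaptor of blood cells, measured 1.24, 2.09 and 2.06 FPKM in *Ptpn6*+/mev and 2.21, 0.81 and 1.44 FPKM in wild-type, and had a log2 fold change of 0.22 (FDR 0.887).

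Other neutrophil genes were used to place the 9. Of 11 granule genes 3 passed the filter, and 0 of 3 were called by edgeR's or DESeq2's tests, also at an unadjusted p under 0.05. *Mpo*, *Elane* and *Ctsg*, primary granule proteins made by precursors in the marrow, had at most 1 count in any library, and the secondary granule genes *Camp*, *Ngp* and *Ltf* stayed between 0 and 0.68 FPKM. *Lcn2* was at 961.5 to 2269 FPKM, but injured tubules make it as well. *Lcn2* stood at -0.08 (FDR 0.961) and *Chil3*, shared with macrophages, at 0.43 (FDR 0.736). The neutrophil surface marker *Ly6g* was at 0 to 0.77 FPKM. *Mmp9*, a protease of the tertiary granules, passed the filter at 0.63 to 4.19 FPKM and stood at -0.13 (FDR 0.963), and *Prtn3*, a further primary granule gene, had 0 to 15 counts. *Mpo*, *Elane*, *Ctsg*, *Camp*, *Ngp* and *Ly6g* thus had at most 3 counts in any kidney, and *Ltf* had 4 to 11 counts. The granule and surface genes named here, *Lcn2* and *Chil3* apart, were chosen for mention after their values were seen.

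Of 21 surface and effector genes 15 were tested, of which 12 had positive log2 fold changes with a median of 0.33, and 0 were called by edgeR's quasi-likelihood test, with 1 lower at an unadjusted p under 0.05. Without wild-type replicate 2 the median was 0.15, and without *Ptpn6*+/mev replicate 3 it was 0.18, with 9 of 15 positive in each case. Without *Ptpn6*+/mev replicate 1 it was 0.50. *Cyba*, a subunit of the phagocyte oxidase that other kidney cells share, stood at -0.085 (FDR 0.819). *G0s2*, an inhibitor of lipolysis that is also expressed outside neutrophils, was the gene past that unadjusted p, at 50.91, 50.03 and 48.81 FPKM in *Ptpn6*+/mev and 89.76, 164.79 and 70.36 FPKM in wild-type. Every wild-type kidney was above every *Ptpn6*+/mev kidney, and the share of all genes in that order was not counted. The log2 fold change of *G0s2*, -1.21 (SE 0.31), had an FDR of 0.172. It fell under the threshold without wild-type replicate 2 (-0.71, FDR 0.0253), in DESeq2's Wald test (FDR 0.0039) and in edgeR's exact test (FDR 0.0088). Of 6 regulators of granulocyte differentiation 4 were tested, and 0 were called by the quasi-likelihood test, with *Cebpa* lower at an unadjusted p under 0.05. *Cebpa* stood at -0.51 (SE 0.10, FDR 0.104), with an FDR of 0.0079 in DESeq2's Wald test and 0.0090 in edgeR's exact test, and *Cebpd* stood at -0.12 (FDR 0.779). Both are also expressed outside granulocytes.

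The 5 endothelial adhesion molecules of leukocyte recruitment were all tested. By the quasi-likelihood test 0 of 5 were called, with *Vcam1* higher and *Icam1* lower at an unadjusted p under 0.05. *Vcam1* measured 13.31, 24.00 and 22.77 FPKM in *Ptpn6*+/mev and 11.69, 5.91 and 11.44 FPKM in wild-type. Its groups did not overlap, beside 14.0% of all genes tested in this direction. Its log2 fold change was 1.05 (SE 0.28, FDR 0.188), with an FDR of 0.0125 in DESeq2's Wald test and 0.0180 in edgeR's exact test. *Icam1*, a ligand of the β2 integrins of neutrophils, stood at -0.34 (SE 0.13, FDR 0.353), in the other direction.

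The signs of the fold changes of the neutrophil genes depended on single kidneys for 5 of the 8. *Retnlg*, *Trem1* and *Clec4d* kept positive log2 fold changes in each of the 6 fits that left out 1 library, whereas *S100a8*, *S100a9*, *Csf3r*, *Cxcr2* and *Il1r2* changed sign in at least 1 of them. *Cxcr2* ranged most, with 0.28 as its highest value (leaving out wild-type replicate 3) and -0.68 as its lowest (leaving out *Ptpn6*+/mev replicate 2). For *Retnlg* the range was 0.26 to 0.77, for *Trem1* 0.20 to 0.65, and the lowest value of all 3 genes came without wild-type replicate 2.

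**Figure D5:**
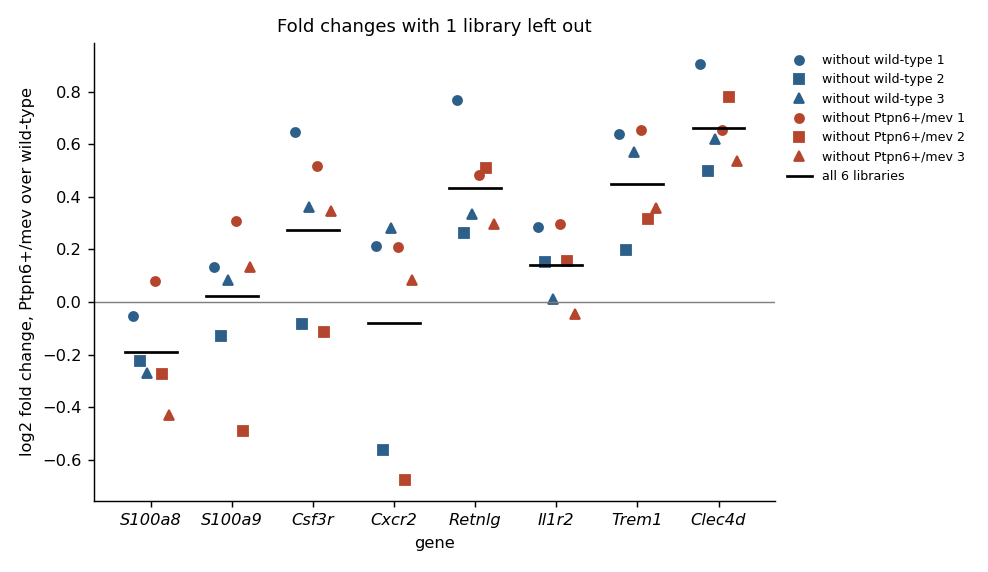
Log2 fold change of *Ptpn6*+/mev over wild-type for the 8 tested neutrophil genes when 1 library is left out, in blue for a wild-type and in red for a *Ptpn6*+/mev library, with the value over all 6 libraries as a black line. *Clec4d* stays between 0.50 and 0.91, and *Cxcr2* lies on both sides of 0.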

How the data were processed

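RNA-seq libraries from 6 mouse kidneys, 3 per genotype, were grouped by their labels. The authors removed adaptor and low-quality sequence, mapped the rest to GRCm38.p5 by TopHat and quantified genes by Cufflinks. The submitters' processing notes name Bowtie2, TopHat2 2.0.3.12, Cufflinks and RSEM, and the tool behind the deposited estimated counts is not given in the sources used here. Per the file headers, the authors deposited estimated counts per gene and FPKM values. FPKM was used for levels and figures.

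Estimated counts, fractional in some library for 1744 of 21367 genes, were rounded. The test was that of edgeR 4.0.16, run in R 4.3.3 (TMM, filterByExpr by group, two-sided quasi-likelihood F-test, Benjamini-Hochberg over 13036 genes). Intervals are 95% from the fit. The SE is the log2 fold change over the square root of F. Mice are separate animals, so the spread is biological and technical. On simulated data for this comparison over 13036 genes, 68% of 2-fold and 92% of 4-fold changes were recovered, and 6.98% of calls were false. Each of these folds was planted in 100 genes, whereas the test called 18 genes in the real data. Recovery was not worked out for the neutrophil genes alone, so these shares do not give the chance of a call for them. By mean FPKM, *Cxcr2* stood at percentile 8.17 of the tested genes and *S100a8* at 33.1. The other tested neutrophil genes lay between them, except *S100a9* at 73.6.

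The 15 alternatives were DESeq2 size factors, upper quartile normalization, DESeq2 1.42.0 (Wald test), edgeR's exact test, limma 3.58.1 on log2(FPKM + 1) and log2(FPKM + 0.1), no filter, a minimum of 10 counts per library, a replicate block, and each library left out. Without a filter, 16516 genes with a count entered. Log2 CPM for correlations and components used a prior count of 2. Positions are from GENCODE M21. Descriptions used Python 3.11.15.

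The members and lists were chosen with earlier results of these data known. Named are the 9 genes, *Ptpn6*, all genes of the 5 signalling lists, the 2 most abundant genes of each other list and any there with an FDR under 0.05 in the test over all 6 libraries, and the 6 genes most like the mean of the members, of which 1 is not reported here. Columns of annotation terms were not used.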

Additional observations from a re-analysis of the deposited data

How the results depend on the processing

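None of the 8 tested neutrophil genes was called in any of the 15 alternatives that could fit it (*Cxcr2* could not be fitted with a minimum of 10 counts per library), and neither was *Mmp8* in the fit without a filter. Over all genes, the count of genes called was 18 in edgeR's quasi-likelihood test and 387 in DESeq2's Wald test, 390 in edgeR's exact test, 52 without a filter and 1 to 231 with 1 library left out, the highest without wild-type replicate 2. Same-numbered kidneys did not deviate together (correlations of -0.14, -0.18 and -0.13). A pairing by number was thus not seen, but 3 libraries per group cannot exclude it. With the replicate block 1 gene was called, *Clec4d* stood at 0.68 (FDR 0.524), and *S100a9* changed sign to -0.086, with no call of a neutrophil gene changed. *S100a9* was -0.016 and -0.020 in limma with pseudocounts of 1 and 0.1, and -0.49 to 0.31 with 1 library left out, being -0.49 without *Ptpn6*+/mev replicate 2 and -0.13 without wild-type replicate 2. *S100a8* ran from -0.43 to 0.081 with 1 library left out, the highest without *Ptpn6*+/mev replicate 1. *Csf3r* ran from -0.11 to 0.65, and was below 0 without *Ptpn6*+/mev replicate 2 (-0.11) and without wild-type replicate 2 (-0.083). *Cxcr2* ran from -0.68 to 0.28. It was 0.13 in limma on log2(FPKM + 0.1), 0.21 without *Ptpn6*+/mev replicate 1, 0.083 without *Ptpn6*+/mev replicate 3, 0.21 without wild-type replicate 1 and 0.28 without wild-type replicate 3. *Il1r2* ran from -0.047, without *Ptpn6*+/mev replicate 3, to 0.30. The cause of these moves was not tested. Counts of 3 to 42 limit what can be seen of *Mmp8* and *Cxcr2*.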

Other observations

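Markers of other blood cells and of the tubule set the neutrophil genes in the tissue they were measured in. Lymphocyte genes were low, with none of 6 T and NK cell genes and none of 4 B cell genes passing the filter on counts, where the 9 neutrophil genes gave 274 to 632 counts per kidney. Their summed counts per kidney were 2 to 24 for the T and NK cell list, of which 5 genes were in the table, and 5 to 24 for the B cell list. Of these, chosen after their values were seen, *Cd79b* had 4 to 23 counts (0.32 to 1.69 FPKM), and *Nkg7* had 14 counts in wild-type replicate 1 and at most 2 elsewhere. Monocyte genes were present, led by *Plac8* at 53.14 to 89.87 FPKM (log2 fold change -0.20, FDR 0.736) and *Ly6c2* (-0.56, FDR 0.662), and 0 of 4 were called by edgeR's quasi-likelihood test, also at an unadjusted p under 0.05. Like *S100a8* and *S100a9*, 3 of these 4 were lowest in *Ptpn6*+/mev replicate 1. Of the platelet list 0 of 3 tested genes were called, also at an unadjusted p under 0.05, with *Pf4* at 0.23 (FDR 0.901) and *Ppbp* as given above. The remaining tested gene, *Itga2b*, went the other way, at -0.49 (SE 0.29, FDR 0.570).

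The injured tubule list was led by *Spp1* (-0.38, SE 0.14, FDR 0.331) and *Clu* (0.08, FDR 0.879), with 0 of 6 called by edgeR's quasi-likelihood test, 1 higher and 1 lower at an unadjusted p under 0.05. The proximal tubule list was led by *Kap*, at 1520 to 10201 FPKM and highest in wild-type replicate 2 (-0.99, FDR 0.604, and 0.35 without that library), and *Slc34a1* (-0.34, FDR 0.567). All 6 genes of that list had negative log2 fold changes and 0 of 6 were called, with 2 lower at an unadjusted p under 0.05. Without wild-type replicate 2, 5 of the 6 were negative and 2 were called lower, and 1 of the 6 injured tubule genes was called higher: these were *Lrp2*, *Slc22a6* and *Krt20*, named after their values were seen. *Slc22a6*, a proximal tubule transporter, had a log2 fold change of -1.11 and an FDR of 0.077, and was called by DESeq2's Wald test, by edgeR's exact test, and by the quasi-likelihood test without a filter (FDR 0.048), without wild-type replicate 2 (FDR 0.029) or without wild-type replicate 3 (FDR 0.032).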
